A study of Mus musculus with 19 samples.

Results

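The 8 genes described here are St6gal1, Cmah, Gne, Nans, Cmas, Slc35a1, St8sia4 and St8sia6, which make, activate, modify or attach sialic acid, the acidic sugar that caps the glycans of vertebrate cells. They were chosen by symbol, as probe sets of the array annotated to a single gene of that name, and they are 8 of the 19938 genes measured, each read by 1 probe set. Endothelial cells were sorted from lymphoid tissue of the inbred mouse strain BALB/c, and their RNA was hybridised to 19 whole-transcript arrays. All groups were an equal mix of male and female adults aged 6 to 8 weeks, with no allele or treatment named in the labels. High endothelial cells (HEC), the tall cells of venules where lymphocytes cross from blood into tissue, came from Peyer's patches of the gut wall (3 arrays), from mesenteric lymph nodes (4 arrays) and from peripheral lymph nodes (4 arrays). Of the mesenteric HEC arrays, 2 held cells sorted as MAdCAM1+/PNAd+ and 2 held cells sorted as MAdCAM1+. Capillary endothelial cells of the same tissues gave 3, 2 and 3 arrays. The gates of the other sorts are not in the labels, nor is it said whether replicates were separate sorts or animals, so p-values measure only how these samples spread, which may be technical.

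Sialic acid is made in the cytosol, where GNE starts and limits the route and NANS condenses the sugar. It is activated with CMP in the nucleus by CMAS and carried into the Golgi by the transporter SLC35A1. In mice CMAH hydroxylates CMP-Neu5Ac to CMP-Neu5Gc, so that 2 forms of the sugar compete for attachment. ST6GAL1 adds sialic acid to the galactose end of N-glycans in alpha-2,6 linkage, the linkage read by CD22, an inhibitory lectin of B cells, and mouse CD22 prefers the Neu5Gc form. ST8SIA4 builds polysialic acid and ST8SIA6 adds a sialic acid to an existing one.

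Of the 8 genes, St6gal1 differed most between peripheral HEC and HEC of either other tissue, and Cmah differed most between HEC and capillary cells. Between Peyer's patch and mesenteric HEC, St8sia6 (0.63 log2) and Nans (-0.61) differed by more than St6gal1 (0.55). Both St6gal1 and Cmah have more than 1 annotated start, which a single probe set cannot tell apart. Their upstream windows are therefore shown. They are the 250 bases before each start listed by RefSeq on GRCm38.p6, for St6gal1 on the plus strand at chr16:23224490-23224739, chr16:23225771-23226020 and chr16:23290220-23290469, and for Cmah on the plus strand at chr13:24327154-24327403 and chr13:24414872-24415121. Capitals mark matches on either strand to the GC box GGGCGG, the E-box CANNTG, the RBPJ word TGGGAA, the NKX2 word TNAAGTG, the NR2F word AGGTCA, or GGG and TTTCC separated by any 2 bases (an NF-kB word).
St6gal1 start 1: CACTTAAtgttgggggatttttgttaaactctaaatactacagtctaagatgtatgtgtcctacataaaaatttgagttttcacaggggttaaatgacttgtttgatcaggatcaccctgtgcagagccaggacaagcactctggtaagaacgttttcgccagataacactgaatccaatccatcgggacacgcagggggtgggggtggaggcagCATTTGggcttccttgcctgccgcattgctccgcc
St6gal1 start 2: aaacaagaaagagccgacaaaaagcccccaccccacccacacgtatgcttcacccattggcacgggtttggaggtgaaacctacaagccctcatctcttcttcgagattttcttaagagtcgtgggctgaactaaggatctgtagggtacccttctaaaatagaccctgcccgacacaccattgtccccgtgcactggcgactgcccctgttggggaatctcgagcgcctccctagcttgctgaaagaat
St6gal1 start 3: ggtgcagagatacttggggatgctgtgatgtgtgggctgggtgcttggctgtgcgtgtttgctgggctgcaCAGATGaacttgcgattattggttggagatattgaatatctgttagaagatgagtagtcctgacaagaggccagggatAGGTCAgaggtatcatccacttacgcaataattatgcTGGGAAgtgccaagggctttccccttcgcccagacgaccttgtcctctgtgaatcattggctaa
Cmah start 1: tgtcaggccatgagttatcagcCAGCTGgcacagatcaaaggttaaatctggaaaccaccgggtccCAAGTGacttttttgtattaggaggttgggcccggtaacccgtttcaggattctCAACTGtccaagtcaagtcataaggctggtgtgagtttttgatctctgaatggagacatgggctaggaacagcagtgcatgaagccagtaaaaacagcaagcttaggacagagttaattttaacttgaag
Cmah start 2: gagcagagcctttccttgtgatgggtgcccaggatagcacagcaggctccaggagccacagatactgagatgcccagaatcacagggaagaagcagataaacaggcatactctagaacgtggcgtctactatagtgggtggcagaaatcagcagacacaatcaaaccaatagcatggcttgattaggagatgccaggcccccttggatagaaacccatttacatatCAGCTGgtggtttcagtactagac

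The St6gal1 starts differed from each other in these words. Start 1 held an E-box at -35 and the NKX2 word at -250, counted from the start of transcription, and start 2 held none of the words. Start 3 held the RBPJ word at -64, the NR2F word at -101 and an E-box at -179. Cmah held 3 E-boxes at start 1 and an E-box at -24 at start 2. Such words are common: an E-box was found in 66.2% of all 32851 windows of this length, the GC box in 32.7%, the RBPJ word in 21.6%, the NR2F word in 14.0%, the NKX2 word in 10.1% and the NF-kB word in 1.41%. Windows were listed for 7 of the 8 genes. A match describes the letters and says nothing of binding, and no match says only that the letters are not in this window.

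Values are log2 signals centred for each probe set on a baseline that the sources used here do not state, so they compare arrays for a gene and not genes with each other, and detection over background is unknown. On the arrays the 6 HEC markers averaged 3.64 to 4.34 log2 in HEC, and the 6 capillary markers averaged -1.17 to -0.56 log2 in HEC and 2.98 to 3.87 in capillary cells. MAdCAM1, whose gene is an HEC marker, was itself a gate of mesenteric HEC. The HEC markers averaged 1.32 and 1.08 log2 in peripheral capillary arrays 1 and 2, against 0.13 in array 3 and -0.93 to -0.18 in the other capillary arrays. For the 8 genes, differences with peripheral capillary cells that are described below for a single gene are therefore also given without arrays 1 and 2. Peyer's patch HEC arrays 2 and 3 stood apart from each other for several of the genes. Differences below are log2 units ± SE from a linear model fitted to all genes and arrays with limma, with p-values adjusted by Benjamini-Hochberg over the 19938 genes and a threshold of 0.05. The 8 genes were picked with results of these data known, so counts over them are descriptions.

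Over the mean of the 3 tissues St6gal1, Cmah and the 4 supply genes were higher in HEC than in capillary cells, and both alpha-2,8-sialyltransferases were lower. All 8 genes thus passed the threshold, 6 higher and 2 lower, where 33.9% of all genes did. Their median difference was 0.58 log2, against -0.01 over all genes. In Peyer's patches 4 were higher and 2 lower (19.5% of all genes called), in mesenteric nodes 4 were higher and 2 lower (15.2%), and in peripheral nodes 4 were higher and 2 lower (24.6%). Cmah, Gne and Nans were higher and St8sia6 and St8sia4 lower in each of the 3 tissues, so 5 of 8 were called in 1 direction throughout, which 9.89% of all genes were. Of these 5, St8sia6 lost its call in peripheral nodes without peripheral capillary arrays 1 and 2. Without peripheral capillary arrays 1 and 2, 7 genes passed over the mean of tissues and 5 in peripheral nodes. HEC and capillary arrays did not overlap for 6 of the 8 genes in Peyer's patches (27.0% of all genes), 7 in mesenteric nodes (37.1%) and 6 in peripheral nodes (35.0%).

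**Figure D1:**
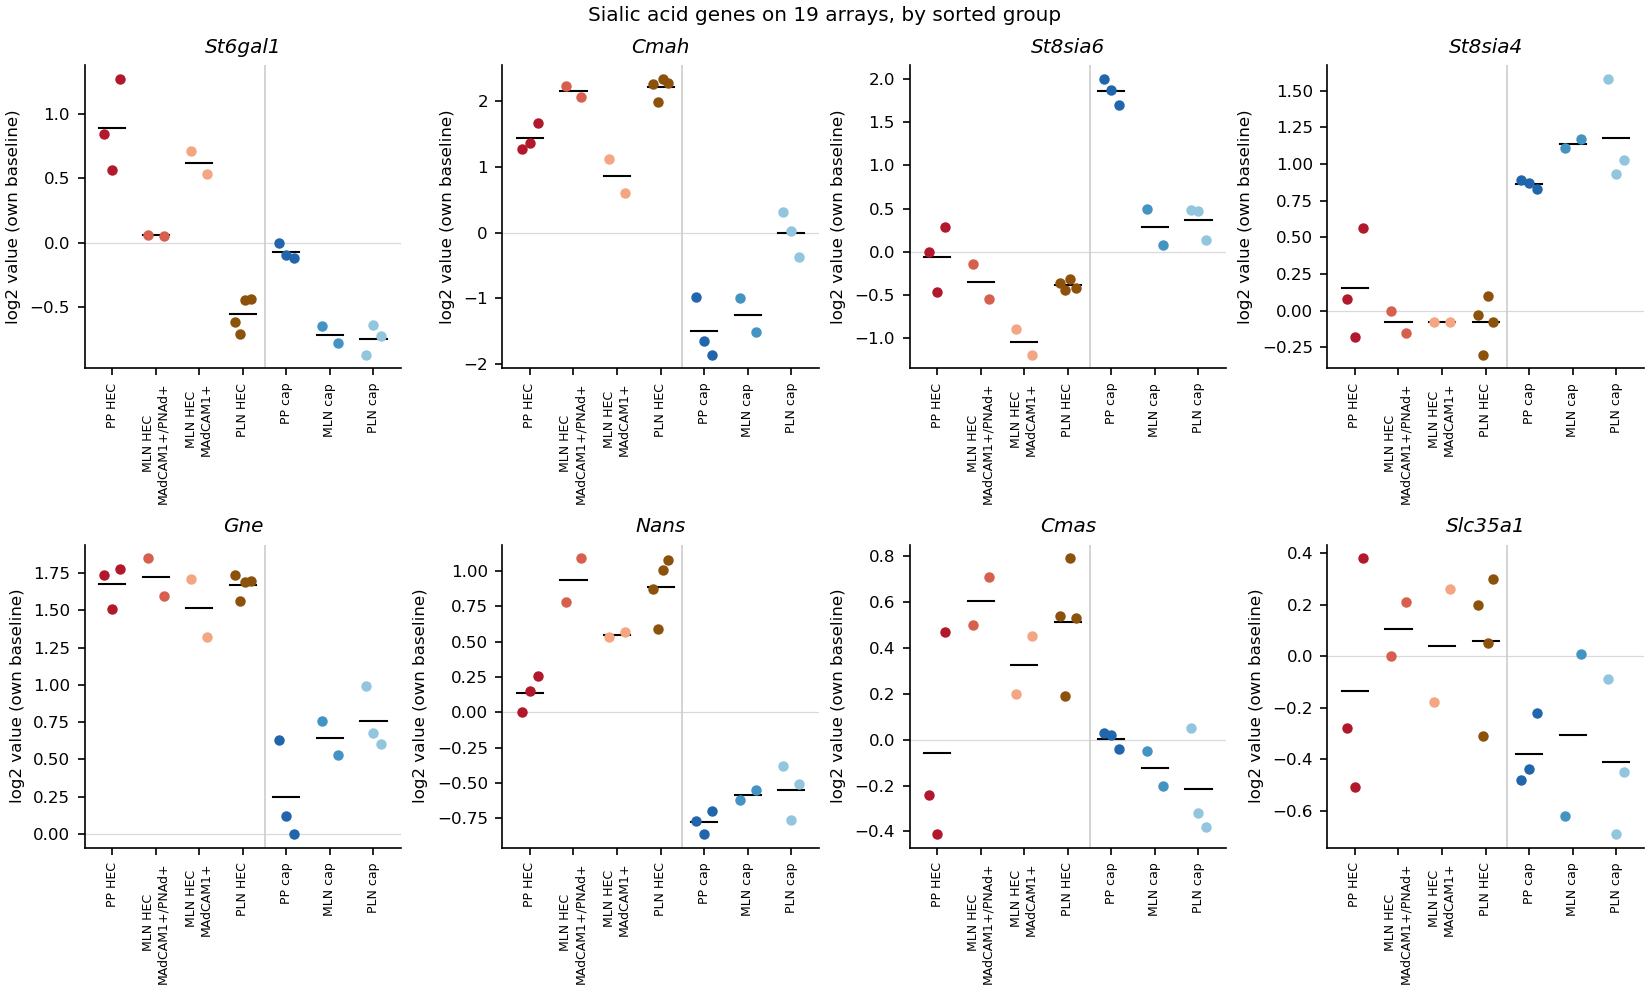
Deposited log2 values (y axis, each gene on its own baseline and scale) of the 8 genes on every array, by sorted group, with HEC left of the vertical line and capillary cells right of it. Points are arrays and bars are group means. Among HEC, St6gal1 is lowest in the 4 peripheral arrays (-0.71 to -0.44), and St8sia6 is highest in the 3 Peyer's patch capillary arrays (1.70 to 2.00).

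St6gal1, the alpha-2,6-sialyltransferase, was highest in Peyer's patch HEC, intermediate in mesenteric HEC and lowest among HEC in peripheral nodes. Its log2 values were 0.84, 0.56 and 1.27 in Peyer's patch HEC, 0.06 and 0.05 in MAdCAM1+/PNAd+ mesenteric HEC, 0.71 and 0.53 in MAdCAM1+ mesenteric HEC, and -0.62, -0.71, -0.45 and -0.44 in peripheral HEC. In capillary cells they were 0.00, -0.10 and -0.12 in Peyer's patches, -0.65 and -0.78 in mesenteric nodes, and -0.87, -0.64 and -0.73 in peripheral nodes. Every peripheral HEC array lay below every HEC array of the other tissues and below every Peyer's patch capillary array. By group mean the order was Peyer's patch HEC (0.89), MAdCAM1+ mesenteric HEC (0.62), MAdCAM1+/PNAd+ mesenteric HEC (0.06), Peyer's patch capillary cells (-0.07), peripheral HEC (-0.55), mesenteric capillary cells (-0.72) and peripheral capillary cells (-0.75). The highest pair overlapped, as did peripheral HEC with mesenteric capillary cells, and mesenteric with peripheral capillary cells. The other neighbours in the order did not overlap.

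St6gal1 was higher in HEC than in capillary cells by 0.96 ± 0.14 in Peyer's patches (1.95-fold, adjusted p = 4.71e-05 by limma) and by 1.06 ± 0.15 in mesenteric nodes (2.08-fold, adjusted p = 4.21e-05). In peripheral nodes the difference was 0.19 ± 0.13, with a 95% interval of -0.08 to 0.46 and an adjusted p = 0.281 by limma, and the arrays overlapped. Without peripheral capillary arrays 1 and 2 it was 0.18 (adjusted p = 0.612). The HEC difference was larger in Peyer's patches than in peripheral nodes by 0.77 ± 0.19 (adjusted p = 0.0271 by limma). For this interaction 2 of the 8 genes were called, against 4.05% of all genes. The St6gal1 call was lost when any of 6 arrays was left out (adjusted p from 0.0526 to 0.08: Peyer's patch HEC array 1, Peyer's patch capillary arrays 2 and 3, peripheral HEC array 2 and peripheral capillary arrays 2 and 3), and the estimate without peripheral capillary arrays 1 and 2 was 0.78 (adjusted p = 0.139). The same difference between mesenteric and peripheral nodes was 0.86 ± 0.19 (adjusted p = 0.0742 by limma). For it 0 of the 8 genes were called, against 0.416% of all genes. An unadjusted p under 0.05 was reached by 1 of the 8, which was not counted over all genes. Without Peyer's patch HEC array 2 this St6gal1 difference had an adjusted p of 0.0204 by limma, and without array 3 of 0.00838. Without peripheral capillary arrays 1 and 2 it was 0.88 (adjusted p = 0.322). Between Peyer's patches and mesenteric nodes the St6gal1 difference was -0.10 ± 0.20. Limma called 0 of the 8 genes there, against 0.752% of all genes. An unadjusted p under 0.05 was reached by 3 of the 8, again not counted over all genes.

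**Figure D2:**
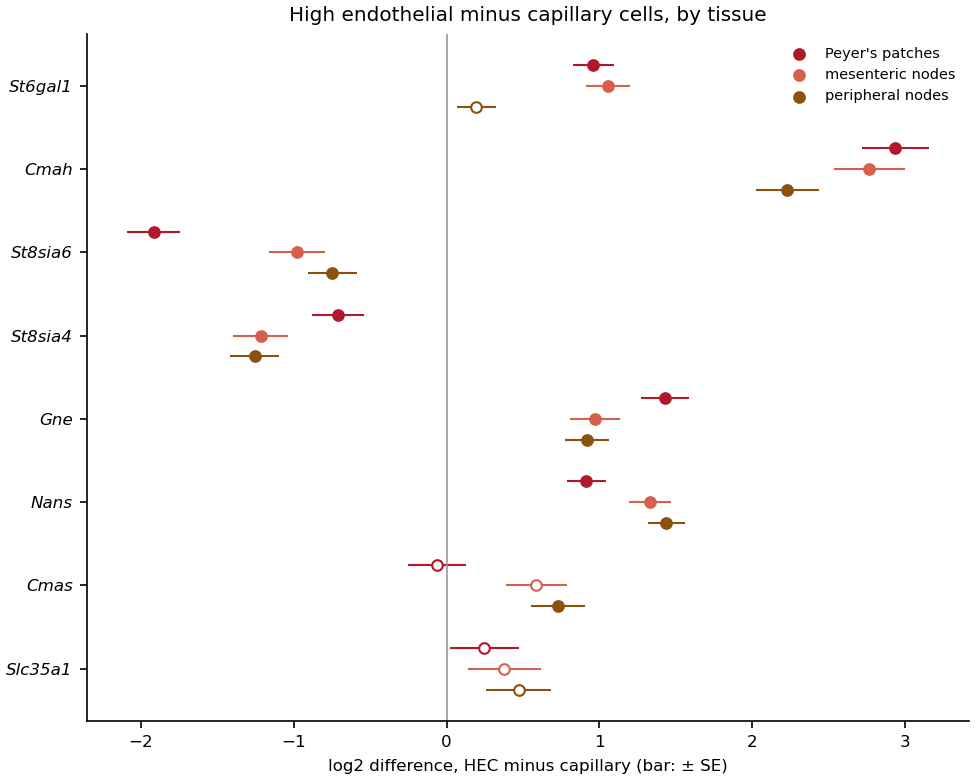
Log2 difference of HEC minus capillary cells (x axis) for the 8 genes in Peyer's patches, mesenteric nodes and peripheral nodes, with bars of ± SE. Filled points passed the threshold over all genes. St6gal1 is filled in Peyer's patches and mesenteric nodes (0.96 and 1.06) and open in peripheral nodes (0.19).

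Among HEC, St6gal1 was higher in Peyer's patches than in peripheral nodes by 1.44 ± 0.13 (2.72-fold, adjusted p = 1.19e-06 by limma), and this call held under every alternative run. It was higher in mesenteric than in peripheral HEC by 0.89 ± 0.12 (1.86-fold, adjusted p = 0.000215), again under every alternative. The step of Peyer's patch over mesenteric HEC was smaller, at 0.55 ± 0.13 (adjusted p = 0.0453), and it lost the threshold without any of 18 of the 19 arrays (adjusted p from 0.0513 to 0.18). Without Peyer's patch HEC array 3, the highest array, this step was 0.36 (adjusted p = 0.0612). Capillary cells also differed by tissue, with St6gal1 higher in Peyer's patches than in peripheral nodes by 0.68 ± 0.14 (adjusted p = 0.00526 by limma) and than in mesenteric nodes by 0.65 ± 0.15 (adjusted p = 0.0354). The Peyer's patch over peripheral call was lost without peripheral capillary arrays 1 and 2 (0.66, adjusted p = 0.159). The Peyer's patch over mesenteric call was lost without any of 8 arrays (adjusted p from 0.0512 to 0.36), among them both mesenteric capillary arrays. Mesenteric minus peripheral capillary cells gave 0.03 ± 0.15, and 0.02 without those arrays of the peripheral group.

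In sorted bulk samples more cells of a type and more RNA per cell cannot be told apart, so markers of other cells are given beside St6gal1. B cells use St6gal1, and 8 of 11 measured B cell markers were higher in HEC than in capillary cells over the mean of tissues, against 18.0% of all genes. Their mean ran from 0.16 to 0.28 log2 in Peyer's patch HEC, 0.46 to 0.51 in MAdCAM1+/PNAd+ and 0.29 to 0.43 in MAdCAM1+ mesenteric HEC, and 0.50 to 0.71 in peripheral HEC. Among HEC the marker mean was highest in peripheral nodes, where St6gal1 was lowest. Of the 11 markers 4 were lower in Peyer's patch than in peripheral HEC, against 4.49% of all genes, among them Ms4a1 (-1.06 ± 0.17). In capillary cells the marker mean was -0.13 to -0.07 log2 in Peyer's patches, -0.17 to -0.09 in mesenteric nodes and -0.10 to 0.14 in peripheral nodes. The part of B cells in the St6gal1 values, among HEC or between HEC and capillary cells, was not tested. Of 8 markers of intestinal epithelium, which borders Peyer's patches, 7 were higher in Peyer's patch than in peripheral HEC (2.16% of all genes). Over mesenteric HEC 4 were higher (0.557% of all genes). Epcam gave 0.98 ± 0.11 and 0.84 ± 0.11 in these comparisons. The mean of the 8 markers was 0.72 to 0.81 log2 in Peyer's patch HEC and -0.24 to 0.06 in all other HEC arrays. It was 0.16 to 0.97 in Peyer's patch capillary cells against -0.06 to 0.12 in other capillary arrays. Their part in the Peyer's patch values of St6gal1 was not tested. Between mesenteric and peripheral HEC limma called 2.69% of all genes and 0 of the 8 epithelial markers (median 0.11, Epcam 0.14 ± 0.10). Of these markers 0 had an unadjusted p under 0.05. Their part in the St6gal1 difference of 0.89 there was not tested. Of 6 markers of pericytes and smooth muscle, Acta2 was higher in that comparison (1.08 ± 0.20, adjusted p = 0.00519 by limma), as 0.722% of all genes were. The mean of the 6 was -1.07 to -0.75 log2 in Peyer's patch HEC, -0.86 to -0.78 in MAdCAM1+/PNAd+ and -0.62 to -0.61 in MAdCAM1+ mesenteric HEC, and -1.42 to -1.11 in peripheral HEC. Among HEC this mean was lowest in peripheral nodes, as St6gal1 was. In capillary cells it was -0.19 to 0.31 log2 in Peyer's patches and 0.72 to 0.74 in mesenteric nodes. Peripheral capillary arrays 1, 2 and 3 had 0.72, 1.48 and 0.57. Between cell types the markers were thus higher in capillary cells, whereas St6gal1 was higher in HEC over the mean of tissues. For 4 of the 6 the HEC difference was also higher (less negative) in Peyer's patches than in peripheral nodes. For this interaction 1.69% of all genes were called higher. Their part in the St6gal1 values was not tested. On centred values it cannot be read whether a marker was at background.

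**Figure D3:**
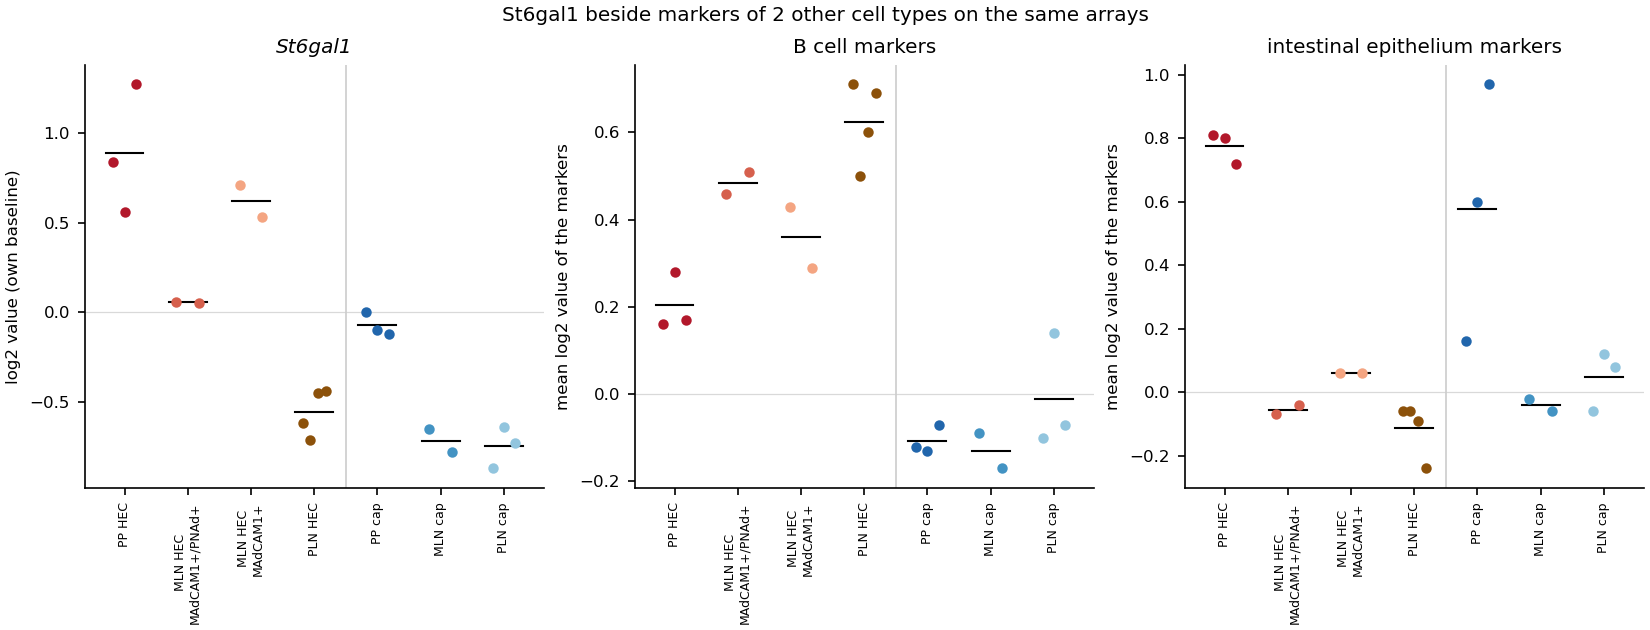
St6gal1 (left, log2 value on its own baseline), the mean log2 value of 11 B cell markers (middle) and of 8 intestinal epithelium markers (right) on the same 19 arrays, by group, with bars at group means. Among HEC the B cell markers are lowest in Peyer's patches (0.16 to 0.28) and highest in peripheral nodes (0.50 to 0.71), and the epithelial markers stand out in both Peyer's patch groups.

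Cmah, the hydroxylase that makes Neu5Gc, had the largest difference between HEC and capillary cells of the 8 genes. Its log2 values were 1.28, 1.36 and 1.67 in Peyer's patch HEC, 2.23 and 2.07 in MAdCAM1+/PNAd+ and 1.12 and 0.60 in MAdCAM1+ mesenteric HEC, and 2.27, 1.99, 2.34 and 2.28 in peripheral HEC. In capillary cells they were -0.99, -1.65 and -1.86 in Peyer's patches, -1.0 and -1.52 in mesenteric nodes, and 0.31, 0.03 and -0.38 in peripheral nodes. All 11 HEC arrays lay above all 8 capillary arrays. Cmah was higher in HEC by 2.94 ± 0.22 in Peyer's patches (7.65-fold, adjusted p = 2.21e-08 by limma), 2.77 ± 0.23 in mesenteric nodes (6.80-fold, adjusted p = 1.26e-07) and 2.23 ± 0.20 in peripheral nodes (4.69-fold, adjusted p = 2.83e-07). Without peripheral capillary arrays 1 and 2 the last of these was 2.59 (adjusted p = 1.46e-05).

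Among HEC of different tissues 1 of 3 comparisons called Cmah. It was lower in Peyer's patch than in peripheral HEC by -0.78 ± 0.20 (adjusted p = 0.0287 by limma), a call lost without any of 5 arrays (adjusted p from 0.0601 to 0.131) and after repeated quantile normalization (-0.61, adjusted p = 0.0831). Mesenteric against peripheral HEC gave -0.71 ± 0.19 (adjusted p = 0.0552), and Peyer's patch against mesenteric HEC -0.07 ± 0.20. Cmah was lower in Peyer's patch than in peripheral capillary cells by -1.49 ± 0.22 (adjusted p = 0.000322) and in mesenteric than in peripheral capillary cells by -1.25 ± 0.24 (adjusted p = 0.0356). Without peripheral capillary arrays 1 and 2, those with raised HEC markers, these capillary differences were -1.12 (adjusted p = 0.0751) and -0.89 (adjusted p = 1). Of 11 B cell markers 4 were also lower in Peyer's patch than in peripheral HEC, against 4.49% of all genes. The part of B cells in the Cmah values was not tested.

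Of the genes that supply activated sialic acid, Gne and Nans were higher in HEC in every tissue. Gne, the entry enzyme, had log2 values of 1.74, 1.51 and 1.78 in Peyer's patch HEC, 1.85 and 1.60 in MAdCAM1+/PNAd+ and 1.71 and 1.32 in MAdCAM1+ mesenteric HEC, and 1.74, 1.56, 1.69 and 1.70 in peripheral HEC. In capillary cells Gne had 0.63, 0.12 and 0.00 in Peyer's patches, 0.76 and 0.53 in mesenteric nodes, and 0.99, 0.68 and 0.60 in peripheral nodes. HEC and capillary arrays did not overlap, and HEC groups that were neighbours by mean overlapped. Gne was higher in HEC by 1.43 ± 0.16 in Peyer's patches, 0.97 ± 0.16 in mesenteric nodes and 0.92 ± 0.15 in peripheral nodes (adjusted p = 2.17e-06, 0.000357 and 0.000145 by limma), the last being 1.07 (adjusted p = 0.00256) without peripheral capillary arrays 1 and 2. Between Peyer's patch and peripheral HEC it differed by 0.00 ± 0.15.

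Nans, the synthase, had log2 values of 0.00, 0.15 and 0.26 in Peyer's patch HEC, 0.78 and 1.09 in MAdCAM1+/PNAd+ and 0.53 and 0.57 in MAdCAM1+ mesenteric HEC, and 0.87, 0.59, 1.01 and 1.08 in peripheral HEC. In capillary cells Nans had -0.77, -0.86 and -0.70 in Peyer's patches, -0.62 and -0.55 in mesenteric nodes, and -0.38, -0.76 and -0.51 in peripheral nodes. Peyer's patch HEC lay below all other HEC and above all capillary arrays. Nans was higher in HEC by 0.92 ± 0.13 in Peyer's patches, 1.33 ± 0.14 in mesenteric nodes and 1.44 ± 0.12 in peripheral nodes (adjusted p = 3.85e-05, 1.38e-06 and 9.37e-08 by limma), the last being 1.40 (adjusted p = 3.71e-05) without peripheral capillary arrays 1 and 2. Among HEC it was lower in Peyer's patches than in peripheral nodes by -0.75 ± 0.12 (adjusted p = 0.000666) and than in mesenteric nodes by -0.61 ± 0.12 (adjusted p = 0.0157). The second of these was lost without any of 4 arrays (adjusted p from 0.0528 to 0.116).

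Cmas and Slc35a1 differed by less. Cmas, which couples sialic acid to CMP, ranged from -0.41 to 0.47 log2 in Peyer's patch HEC, 0.20 to 0.71 in mesenteric HEC and 0.19 to 0.79 in peripheral HEC, against -0.04 to 0.03, -0.20 to -0.05 and -0.38 to 0.05 in capillary cells of those tissues. It was higher in HEC in peripheral nodes by 0.73 ± 0.18 (adjusted p = 0.00577 by limma), or 0.895 without peripheral capillary arrays 1 and 2 (adjusted p = 0.0321). It gave 0.59 ± 0.20 in mesenteric nodes (adjusted p = 0.061) and -0.06 ± 0.19 in Peyer's patches (adjusted p = 0.879). The Peyer's patch HEC arrays gave -0.24, -0.41 and 0.47, so array 3 alone lay above the capillary arrays. Slc35a1, the Golgi transporter, ranged from -0.51 to 0.38 log2 over HEC arrays and from -0.69 to 0.01 over capillary arrays, and the groups overlapped in every tissue. Its mean difference of 0.36 ± 0.13 passed (adjusted p = 0.0389 by limma) but not without any of 11 arrays (adjusted p from 0.0527 to 0.191), nor without peripheral capillary arrays 1 and 2 (0.38, adjusted p = 0.0689). In no single tissue did limma call Slc35a1 (0.25 ± 0.23 in Peyer's patches, 0.38 ± 0.24 in mesenteric nodes and 0.47 ± 0.21 in peripheral nodes, or 0.51 without those 2 arrays).

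The alpha-2,8-sialyltransferases ran against the other genes. St8sia6 had log2 values of 0.00, -0.47 and 0.29 in Peyer's patch HEC, -0.14 and -0.55 in MAdCAM1+/PNAd+ and -0.89 and -1.19 in MAdCAM1+ mesenteric HEC, and -0.36, -0.44, -0.32 and -0.42 in peripheral HEC. In capillary cells St8sia6 had 2.00, 1.87 and 1.70 in Peyer's patches, 0.49 and 0.08 in mesenteric nodes, and 0.48, 0.47 and 0.14 in peripheral nodes. The Peyer's patch capillary arrays stood above all others. St8sia6 was lower in HEC by -1.92 ± 0.17 in Peyer's patches, -0.98 ± 0.18 in mesenteric nodes and -0.75 ± 0.16 in peripheral nodes (adjusted p = 1.99e-07, 0.000827 and 0.00224 by limma), the last of which was -0.53 (adjusted p = 0.17) when peripheral capillary arrays 1 and 2 were left out. For St8sia6 the drop in HEC was steeper in Peyer's patches than in peripheral nodes, with an interaction of -1.17 ± 0.23 (adjusted p = 0.00725), or -1.39 without those arrays (adjusted p = 0.0233). Among capillary cells St8sia6 was higher in Peyer's patches than in mesenteric nodes by 1.57 ± 0.19 (adjusted p = 0.000123) and than in peripheral nodes by 1.49 ± 0.17 (adjusted p = 2.63e-05), or 1.71 without those arrays (adjusted p = 0.00123). Epithelial markers were also raised in these arrays, at 0.16, 0.60 and 0.97 log2 in Peyer's patch capillary arrays 1, 2 and 3, while St8sia6 was 2.00, 1.87 and 1.70 there, and their part in the St8sia6 values was not tested.

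St8sia4, the polysialyltransferase, had log2 values of 0.08, -0.18 and 0.56 in Peyer's patch HEC, 0.00 and -0.15 in MAdCAM1+/PNAd+ and -0.08 and -0.08 in MAdCAM1+ mesenteric HEC, and -0.03, -0.30, 0.10 and -0.08 in peripheral HEC. In capillary cells it had 0.89, 0.87 and 0.83 in Peyer's patches, 1.11 and 1.17 in mesenteric nodes, and 1.58, 0.93 and 1.03 in peripheral nodes. All HEC arrays lay below all capillary arrays. St8sia4 was lower in HEC by -0.71 ± 0.17 in Peyer's patches, -1.22 ± 0.18 in mesenteric nodes and -1.26 ± 0.16 in peripheral nodes (adjusted p = 0.00566, 9.6e-05 and 1.36e-05 by limma), the last being -1.11 (adjusted p = 0.00157) without peripheral capillary arrays 1 and 2. It passed in none of the 6 tissue comparisons within HEC or capillary cells, where its differences ran from -0.32 ± 0.17 to 0.23 ± 0.16. All 6 markers of pericytes and smooth muscle were lower in HEC than in capillary cells over the mean of tissues too, against 15.9% of all genes. Their mean was -1.42 to -0.61 log2 in HEC and -0.19 to 1.48 in capillary cells. Their part in the values of St8sia4 and St8sia6 was not tested.

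Fewer of the genes were called between tissues than between cell types. Between Peyer's patch and peripheral HEC 3 of 8 were called (St6gal1 higher, Cmah and Nans lower), against 6.65% of all genes. Between mesenteric and peripheral HEC 1 of 8 was called (St6gal1 higher), against 2.69%, and between Peyer's patch and mesenteric HEC 2 of 8 (St6gal1 higher, Nans lower), against 1.20%. Among capillary cells 3 of 8 were called between Peyer's patches and peripheral nodes (St6gal1 and St8sia6 higher, Cmah lower), against 4.64%. The other capillary comparisons called 2 of 8 between Peyer's patches and mesenteric nodes (St6gal1 and St8sia6 higher), against 1.86%, and 1 of 8 between mesenteric and peripheral nodes (Cmah lower), against 0.291%. Without 1 array these counts were 2 to 4, 1 to 2 and 0 to 2 among HEC, and 3 to 4, 1 to 2 and 0 to 1 among capillary cells. Both capillary counts against peripheral nodes were lower without peripheral capillary arrays 1 and 2, which leaves 1 array in that group. Comparisons within a cell type share their groups, so their calls are not independent. In Peyer's patches against peripheral nodes St6gal1 had the largest difference of the 8 genes among HEC. Among capillary cells St8sia6 (1.49 ± 0.17) and Cmah (-1.49 ± 0.22) had differences of like size and opposite sign on all arrays. Without peripheral capillary arrays 1 and 2 that of St8sia6 was larger and that of Cmah smaller.

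**Figure D4:**
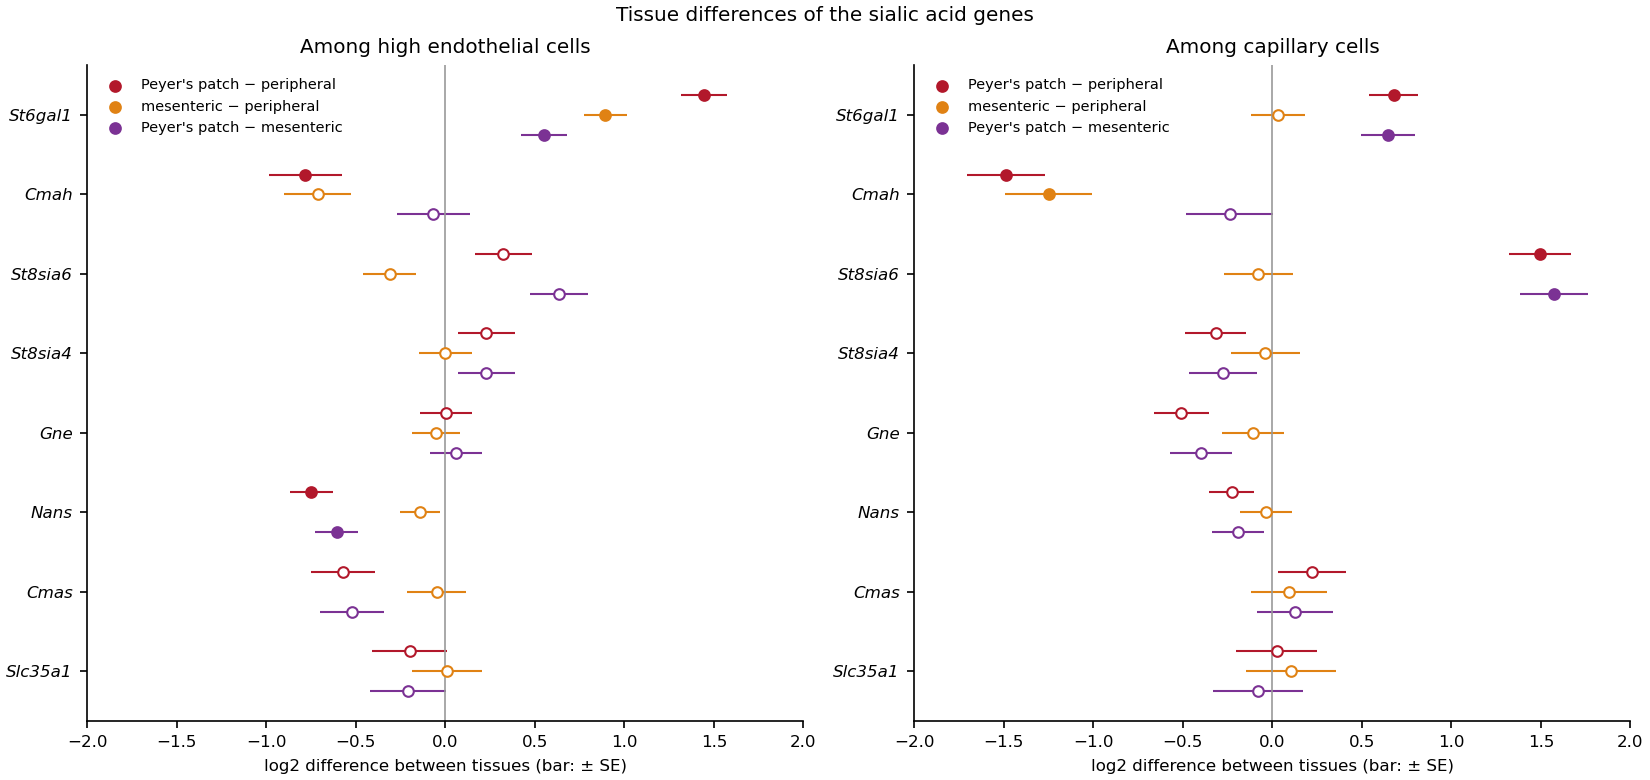
Log2 differences between tissues (x axis) for the 8 genes, among HEC (left) and among capillary cells (right), with bars of ± SE and filled points past the threshold. St6gal1 is filled in all 3 HEC comparisons (1.44, 0.89 and 0.55), and Gne, St8sia4, Cmas and Slc35a1 are open in every comparison.

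The mesenteric gates were compared with 2 arrays each. St6gal1 gave -0.57 ± 0.17 in MAdCAM1+/PNAd+ against MAdCAM1+ cells (adjusted p = 1 by limma) and Cmah gave 1.28 ± 0.27 (adjusted p = 0.233), with no overlap of arrays for either. St8sia6 gave 0.69 ± 0.21 and Nans 0.39 ± 0.16, also without overlap. Arrays did not overlap for 5 of the 8 genes, against 28.4% of all genes. Limma called 0 of the 8 genes, against 0.0201% of all genes. An unadjusted p under 0.05 was reached by 4 of the 8, which was not counted over all genes. These 4 genes were picked by p-value in this same comparison, so where their means lie is only a description. The St6gal1 mean was 0.06 in MAdCAM1+/PNAd+, 0.62 in MAdCAM1+ and -0.55 in peripheral HEC. Those groups had 2.15, 0.86 and 2.22 for Cmah, and 0.94, 0.55 and 0.89 for Nans. For St8sia6 they had -0.35, -1.04 and -0.38, and Peyer's patch HEC had -0.06. The replicate numbers of the gates do not repeat, and no source used here says whether the gates came from the same sort.

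The genes nearest to St6gal1 in profile were found by the root mean square difference over the 19 arrays, each gene centred on its own mean. Grik2, a kainate receptor subunit, was nearest at 0.24 log2, followed by Afap1l2 (0.27), Nqo1, a quinone reductase (0.28), Mras, a small GTPase (0.29) and Ltbp1, which binds latent TGF-beta (0.30), where the SD of St6gal1 itself was 0.62. Grik2 was higher in Peyer's patch than in peripheral HEC by 1.95 ± 0.14, and Ltbp1, Nqo1, Afap1l2 and Mras by 1.44 ± 0.16, 1.39 ± 0.22, 1.18 ± 0.12 and 0.77 ± 0.11. In mesenteric over peripheral HEC the same genes gave 0.92 ± 0.13 for Grik2, 1.51 ± 0.15 for Ltbp1, 1.26 ± 0.20 for Nqo1, 0.63 ± 0.11 for Afap1l2 and 0.46 ± 0.10 for Mras, all past the threshold by limma. They were picked for likeness on these arrays, so their agreement in direction is given by the choice. None of the 8 sialic acid genes was among them, and the nearest of the 8 was Slc35a1 at 0.62 log2.

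The genes around the pathway moved in both directions. Of 11 genes of hexosamine supply, recycling and transport 8 were higher in HEC over the mean of tissues and none lower (median 0.60 log2, against -0.01 over all genes), where 18.0% of all genes were higher and 15.9% lower. Gfpt1, which commits fructose-6-phosphate to hexosamine synthesis, was higher by 1.86 ± 0.09, Pgm3, a later enzyme of that route, by 1.38 ± 0.13, Slc35a3, a Golgi UDP-GlcNAc transporter, by 1.31 ± 0.15 and the epimerase Renbp by 0.77 ± 0.15. The count of higher genes was 6 in peripheral nodes (13.1% of all genes). It was 5 in mesenteric nodes (7.87% of all genes) and 5 in Peyer's patches (8.90%). In mesenteric nodes Gfpt2, a second form of the committing enzyme, was lower (-0.50 ± 0.14, adjusted p = 0.0159 by limma), as 7.31% of all genes were. Gfpt2 was named after its value was seen. Gfpt1 and Nagk, a GlcNAc kinase, were lower in Peyer's patch than in peripheral HEC by -0.69 ± 0.15 and -0.63 ± 0.15 (adjusted p = 0.00922 and 0.0165 by limma), in the direction of Nans.

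Of 17 other sialyltransferases 4 were higher and 5 lower in HEC over the mean of tissues, with a median of -0.03 log2, beside the same 18.0% higher and 15.9% lower of all genes. St3gal1 (-0.85 ± 0.08), St3gal5, the ganglioside GM3 synthase (-0.83 ± 0.08), St6galnac3 (-0.65 ± 0.12) and St6galnac4 (-0.64 ± 0.06) fell most among those called. St3gal4, an alpha-2,3-sialyltransferase, was lower in Peyer's patch HEC than in peripheral HEC by -0.62 ± 0.12 (adjusted p = 0.00397 by limma) and than in mesenteric HEC by -0.59 ± 0.12 (adjusted p = 0.0195), opposite in sign to St6gal1. In Peyer's patch over peripheral HEC St6galnac3 was lower by -0.67 ± 0.19 and St6galnac2 higher by 0.57 ± 0.14 (St6galnac2 in this comparison is outside the rule for named genes), and St6galnac2 was higher in mesenteric over peripheral HEC by 0.58 ± 0.13. St6gal2, the only other alpha-2,6-sialyltransferase of galactose, gave 0.00 ± 0.08 in HEC over capillary cells and was named after its value was seen.

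Of 15 genes measured in a list for branches, galactose ends, chain starts and core fucose of N-glycans, 4 were higher and 8 lower in HEC (median -0.25 log2). Of all genes 18.0% were higher and 15.9% lower. ST6GAL1 acts on the galactose ends, so the count does not describe its sites alone. B4galt6 was the highest at 2.29 ± 0.10, although it is best known for making lactosylceramide rather than N-glycans. B3gnt2, which starts lactosamine chains (-1.20 ± 0.11), Mgat4a, a branching enzyme (-1.07 ± 0.09) and Fut8, the core fucosyltransferase (-1.04 ± 0.08), were lower. Of 7 sialidase and O-acetyl editing genes 3 were higher and none lower, the higher being Siae, which removes O-acetyl groups that block CD22 (0.59 ± 0.12), Ctsa, the partner of a lysosomal sialidase (0.50 ± 0.09) and Casd1, which adds O-acetyl groups (0.44 ± 0.15). Bace1, a protease known to cleave ST6GAL1, was lower by -0.27 ± 0.05 (adjusted p = 0.000499 by limma).

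Of 8 Siglec readers of sialic acid 1 was called where 33.9% of all genes were, Cd22 at 0.22 ± 0.07 in HEC over capillary cells, and Cd22 is also one of the B cell markers. Of 5 genes listed as carriers of polysialic acid 1 was higher and 2 lower, against 18.0% and 15.9% of all genes. Nrp1, whose place as a carrier was not examined here, was lower in HEC by -2.46 ± 0.06 and Cadm1 by -0.15 ± 0.06. The other listed neuropilin, Nrp2, was not called. Ccr7, a chemokine receptor of T cells and dendritic cells, was higher by 0.94 ± 0.09. Cadm1 lost its call without peripheral capillary arrays 1 and 2. Ccr7 was lower in Peyer's patch than in peripheral HEC by -1.47 ± 0.15. Of 5 measured T cell markers 3 were lower there as well, against 4.49% of all genes. The mean of the 5 was -0.06 to 0.17 log2 in Peyer's patch HEC and 0.33 to 0.50 in peripheral HEC. The part of T cells in the Ccr7 values was not tested.

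**Figure D5:**
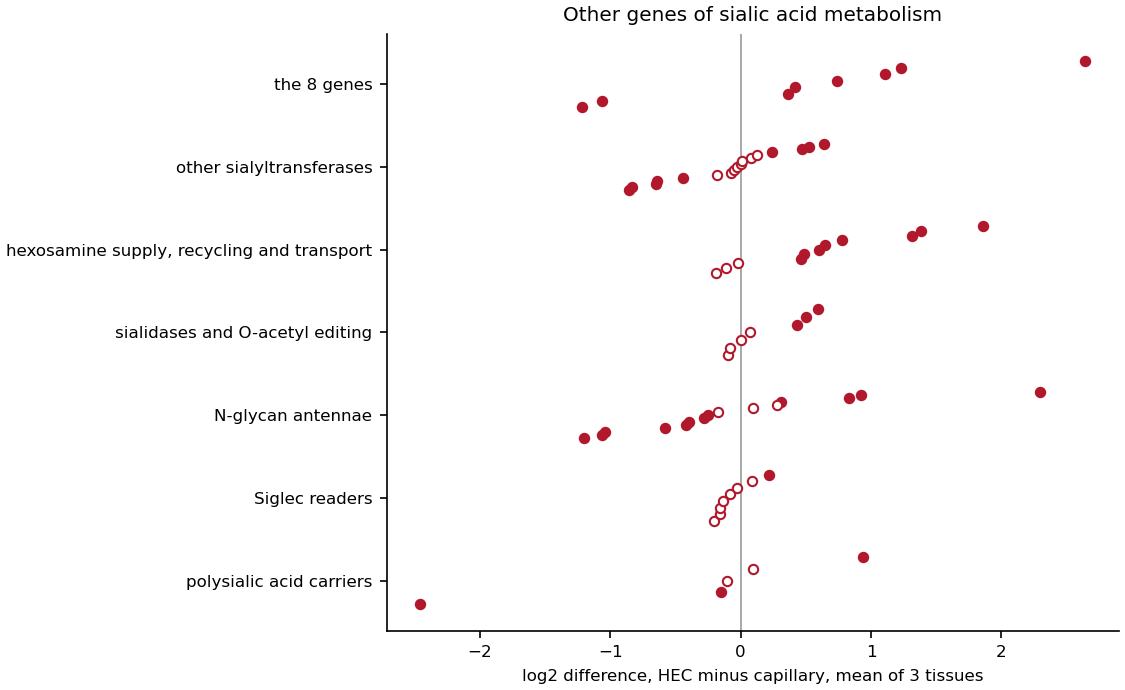
Log2 difference of HEC minus capillary cells over the mean of 3 tissues (x axis) for the 8 genes and for 6 lists of related genes, 1 point a gene, spread vertically only to keep points apart. Filled points passed the threshold. Hexosamine supply genes lie to the right (8 of 11 filled, none lower), and the other sialyltransferases lie on both sides (4 higher and 5 lower).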

How the data were processed

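Sorted endothelial cells of 3 lymphoid tissues were profiled on 19 single-channel arrays. The authors deposited log2 signals. RMA and Partek are named, without versions, per the submitters' processing notes. By RMA, arrays are background-corrected and quantile-normalised and probes are summarised, which compresses large folds. The lowest value was -4.092, the highest 6.128, and an exact 0 occurred in 54.47% of probe sets, so each probe set had been centred on a baseline that is not stated in the sources used here. Signal over background and a filter on dim genes were therefore not to be had, and the genome build of the authors is not given in the sources used here. Precision is limited by the number of arrays.

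The platform annotation gave a single symbol to 21789 of 28856 probe sets, and 1621 with several and 5446 unnamed were left out. Through the Entrez identifier 21698 matched a RefSeq gene table of GRCm38.p6, which changed 0 symbols. Probe sets of a gene were averaged, giving 19938 genes. Group means of all 7 groups were fitted with limma 3.58.1 in R 4.3.3 (lmFit, eBayes, 12 residual degrees of freedom, prior of 4.62 degrees of freedom, prior SD 0.145). Mesenteric HEC was the mean of both gate groups. Two-sided p-values were adjusted by Benjamini-Hochberg for each of 14 contrasts. The steps were tested on simulated data. Plots used matplotlib 3.10.9 (Python 3.11.15).

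The 8 genes, the lists of related genes and markers and the tests were chosen with earlier results of these data known. Named genes were the 8 genes in every comparison, up to 4 called members of each related list in HEC against capillary cells and up to 2 in each HEC tissue difference, fixed marker genes, and the 5 genes nearest to St6gal1. B4galt2, Lck and Ccl21a were not analysed here. Alternatives left out each array, blocked on the replicate number, or used quantile normalization again, centring on array medians, array quality weights, only the compared groups, a filter on range (over 0.75 log2), another choice of probe set, a robust prior and a fit without peripheral capillary arrays 1 and 2. Over 41 pairs of samples with the same replicate number in different groups, deviations from the group means correlated from -0.426 to 0.556 (median 0.0834). Pairs with different numbers ran from -0.582 to 0.608 (median -0.0132). In groups of 2 arrays the deviations mirror each other, so these values cannot tell whether the numbers pair the samples.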

Additional observations from a re-analysis of the deposited data

Results flagged for a closer look

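The HEC over capillary difference of St6gal1 was larger in Peyer's patches than in peripheral nodes by 0.7656 log2. That of St8sia6 was more negative by -1.171 log2. Each came from a limma test of the difference itself (adjusted p = 0.0271 and 0.00725). The St6gal1 call was lost without any of 6 arrays (adjusted p from 0.0526 to 0.08 by limma). It was also lost after quantile normalization again, and without peripheral capillary arrays 1 and 2. For St6gal1 the Peyer's patch HEC arrays stood above their capillary arrays while the peripheral groups overlapped. For St8sia6 the 3 Peyer's patch capillary arrays, at 1.70 to 2.00 log2, stood above all other arrays.

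A sample far from the others was looked for in peripheral HEC, the only group of 4 arrays, over 49 genes. In Casd1 the lowest array was set off from the next by 0.886 of the group's range, and in Ms4a1 by 0.896, both over Dixon's critical value for 4 samples. Chance alone gives such a gap in about 1 of 20 groups.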

How the results depend on the processing

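No alternative reversed a called direction of the 8 genes, and the St6gal1 calls of Peyer's patch and of mesenteric over peripheral HEC kept their side of the threshold under all of them. Each of the 8 genes had 1 probe set, so another choice of probe set could not change their estimated differences. Nor could the filter on range. Whether the replicate numbers pair the samples could not be told. With the replicate block the St6gal1 difference was 0.568 for Peyer's patch minus mesenteric HEC (adjusted p = 0.0552) and 0.579 for Peyer's patch minus mesenteric capillary cells (0.0681), each leaving 1 of the 8 genes called, and mesenteric minus peripheral HEC had 2. For Peyer's patch minus mesenteric HEC, St6gal1 was 0.36 to 0.714 without 1 array, 0.478 after quantile normalization again (0.178), 0.545 with median-centred arrays (0.0791), and 0.549 with only the compared groups (0.35) or without peripheral capillary arrays 1 and 2 (0.0688). For Peyer's patch minus mesenteric capillary cells St6gal1 was 0.581 to 0.709 without 1 array, 0.654 median-centred (0.0571) and 0.645 without those 2 arrays (0.0509), and for Peyer's patch minus peripheral capillary cells 0.66 without them (0.159). Its interaction of Peyer's patches minus peripheral nodes was 0.577 to 0.931 without 1 array, 0.577 after quantile normalization (0.181), 0.725 median-centred (0.0552), 0.766 with the compared groups (0.0597) and 0.782 without the 2 arrays (0.139). Its interaction of mesenteric minus peripheral nodes was 0.798 to 0.926 without 1 array, 0.862 with the compared groups (0.0209) and 0.868 with array weights (0.00291). The causes were not tested.

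The number of the 8 genes called between Peyer's patch and mesenteric HEC was 0 to 2 without 1 array, 1 median-centred, 0 with the compared groups, 1 without the 2 capillary arrays and 5 with array weights. For mesenteric minus peripheral HEC it was 1 to 2 without 1 array and 2 with weights, the compared groups, the filter on range or without the 2 arrays. For Peyer's patch minus peripheral HEC it was 6 with weights. Between mesenteric and peripheral capillary cells it was 0 to 1 without 1 array and 0 median-centred, with the compared groups or without the 2 arrays, for Peyer's patch minus mesenteric capillary cells 1 to 2, 1 median-centred and 1 without the 2 arrays, and for Peyer's patch minus peripheral capillary cells 1 without them. For the interactions it was 1 to 4 without 1 array, 1 median-centred, with the compared groups or without the 2 arrays and 5 with weights (Peyer's patches minus peripheral nodes), 0 to 1, 1 with weights and 1 with the compared groups (mesenteric minus peripheral nodes), and 0 to 1 and 4 with weights (Peyer's patches minus mesenteric nodes). The array weights did not converge and gave Peyer's patch HEC array 1 a weight of 41.6, against 0.214 and 0.182 for arrays 2 and 3, so counts with weights rest on that array.

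Counts over all genes also moved. Between Peyer's patch and peripheral HEC 1326 genes were called, 5300 without Peyer's patch HEC array 3, 712 without array 1, 743 with the compared groups and 11209 with weights. Between Peyer's patch and mesenteric HEC 239 were called, 98 to 946 without 1 array, 153 with the replicate block, 80 with the compared groups and 7138 with weights, and between mesenteric and peripheral HEC 537, 285 to 665 and 1199. HEC minus capillary cells gave 4897 genes in peripheral nodes and 2655 without the 2 arrays, 3027 in mesenteric nodes and 1791 without mesenteric capillary array 1, and 3881 in Peyer's patches and 10439 with weights. Among capillary cells 925, 370 and 58 genes were called (Peyer's patches minus peripheral, Peyer's patches minus mesenteric, mesenteric minus peripheral), with 354 and 4 in the first and last without the 2 arrays, 224 and 0 in the second and last with the compared groups, 1516, 790 and 91 with weights, 124 in the last after quantile normalization, and down to 167 and 15 without a mesenteric capillary array. The interactions gave 808, 83 and 150 genes, with 505 to 2921, 35 to 89 and 73 to 220 without 1 array, 6443, 155 and 1703 with weights, and 357 and 46 for the interactions with peripheral nodes without the 2 arrays. The gates gave 4 genes, 3 to 17 without 1 array, 2 with the replicate block, 10 with weights, 0 with the compared groups and 7 with the filter. The fit without peripheral capillary arrays 1 and 2 for the lists, and that without Peyer's patch HEC array 3 for the lists, were added after seeing the data and gave 7 and 8 hexosamine genes higher in HEC over the mean of tissues.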
